A study of Mus musculus with 8 samples.

Results

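The core of the mammalian clock is a loop of 10 genes, which were taken from the deposited table by gene name: the activators Arntl, Clock and Npas2, the repressors Per1, Per2, Per3, Cry1 and Cry2, and the kinase genes Csnk1d and Csnk1e. All 10 members were found once each among the 53710 rows of the table, and 9 of them passed the filter of a mean of at least 1 FPKM (fragment counts scaled to transcript length and to library size), which 13094 protein-coding genes passed. RNA sequencing was performed on total RNA depleted of ribosomal RNA from pineal glands of 5xFAD mice, a transgenic model of Alzheimer's disease whose mutant human transgenes are driven by the Thy1 promoter, and of wild type C57BL/6 mice. Each group had 4 libraries (5xFAD with the title numbers 1, 2, 3 and 21, and wild type, here WT, with 11, 21, 22 and 23), each library was a pool of glands from several male mice of 5 months of age, and all glands were taken at the same time shortly after lights on. No treatment was given to either group, and the 5xFAD and wild type mice came from different suppliers, so supplier and genotype cannot be told apart. Values of single libraries are given below by ascending title number within each group.

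CLOCK or its paralog NPAS2 pairs with ARNTL, also called BMAL1, and the pair switches on genes that carry an E-box. Among these are the Per and Cry genes, whose proteins enter the nucleus and hold the pair back, while casein kinase 1 delta and epsilon, encoded by Csnk1d and Csnk1e, phosphorylate the PER proteins and set how long they last. A second loop through the REV-ERB repressors (Nr1d1 and Nr1d2) and the ROR activators acts on Arntl through ROR elements, and the factors DBP, TEF and HLF and their opponent NFIL3 act through D-boxes. In mouse tissues the transcripts of Arntl and Npas2 crest at a time of day at which those of Dbp, Nr1d1 and Per3 are low. In the rodent pineal gland the clock genes oscillate, and the gland itself is driven at night by noradrenaline from sympathetic nerves.

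The windows of 250 bases before and 50 bases after the RefSeq start sites (GRCm38.p6) were searched on both strands for the elements through which these loops act. A total of 8 of 10 members matched the promoter table, with 15 start sites, and Per2 and Csnk1d were not in it. The searched letters were CACGTG (E-box), CACGTT (E-box-like), TTATGTAA and TTACGTAA (D-box), TGACGTCA (cAMP element, CRE) and TAGGTCA (core of the ROR element), and none of the matches found overlaps another. The matches in 5 members are shown because these are the elements through which the loops are known to act, with the match in capitals and 11 bases on either side, 5′ to 3′ along the gene's strand.
Cry1 E-box (chr10:85185098-85185125, minus strand, 60 bases before the start): gtgccggtggtCACGTGgggtgcatgcc
Cry1 E-box-like (chr10:85185117-85185144, minus strand, 79 bases before the start, read as its reverse complement): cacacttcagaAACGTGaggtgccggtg
Cry2 E-box-like (chr2:92434219-92434246, minus strand, 166 bases before the start, reverse complement): cacatggtgggAACGTGagggggcggag
Per1 E-box (chr11:69098772-69098799, plus strand, 166 bases before the start): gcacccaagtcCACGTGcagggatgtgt
Per3 D-box (chr4:151044852-151044881, minus strand, 205 bases before the start): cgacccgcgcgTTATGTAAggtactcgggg
Per3 D-box (chr4:151044805-151044834, minus strand, 158 bases before the start): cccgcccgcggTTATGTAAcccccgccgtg
Arntl ROR element core (chr7:113207530-113207558, plus strand, 30 bases after the start): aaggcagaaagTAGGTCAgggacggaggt

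The 2 Cry1 matches lay close together, and the windows printed for them overlap. Of all 32851 promoter windows in the table, 7.15% held CACGTG, 4.68% CACGTT, 0.938% TTATGTAA, 0.119% TTACGTAA, 1.79% TGACGTCA and 2.61% TAGGTCA. Per3 was the member with a D-box, and it held 2 of them. The Per1 match lies within the gene as GENCODE M21 annotates it (chr11:69095217-69109960), whose outermost start is upstream of this RefSeq start. Clock, Npas2 and Csnk1e had none of these letters in their windows.

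The labels were checked first. The glands of both groups carried pinealocyte transcripts, with all 10 markers of the list above 1 FPKM in at least 1 library and a summed level of 2107 to 3427 FPKM in 5xFAD and 1345 to 3169 FPKM in wild type. The table is of mouse genes and holds no row for the human transgenes, so expression could not check the genotype. Xist, the RNA of the inactive X chromosome, stood at 13.3 FPKM in WT-22 and at 0.0404 FPKM or less in the other 7 libraries, while Y-linked Ddx3y stood at 32.0 FPKM or more in all 8, so 1 library went against the stated male sex. Immediate early genes parted 5xFAD-2 and 5xFAD-21 from the rest, with Fos at 69.0 and 43.1 FPKM against 0.918 to 2.23 FPKM in the other 6 libraries. 5xFAD-2 also held 996 FPKM of brown fat markers, against 12.2 to 76.0 FPKM elsewhere, and Aanat, the night-induced enzyme of melatonin synthesis, at 34.8 FPKM against 0.943 to 7.58 FPKM. The sums of osteoblast markers were 36.6 to 417 FPKM in 5xFAD and 84.0 to 1954 FPKM in wild type, and in bulk glands fewer cells of a type and less RNA per cell cannot be told apart. The library titles fall into a set of 21 to 23, which holds 5xFAD-21 and the wild type pools but WT-11, and a set of 1 to 3 and 11, which holds the other 5xFAD pools and WT-11. Where the sets are compared, 5xFAD pools are given before wild type pools in each. What the numbers stand for is not stated, and because each set held a single library of one of the genotypes, genotype and number overlap in part. The study's read statistics give a higher rate of N (uncalled) bases in every library of the set 21 to 23 than in any of the other set. They also give a lower GC rate in every 5xFAD library than in any wild type library. The part of such sequencing differences in the values below was not tested.

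The members were found over a wide span of levels, and they were ordered by FPKM, which is scaled to transcript length. The part of overlapping genes, given below, in these levels was not tested. Clock averaged 25.4 ± 2.56 FPKM (SD, n = 8 libraries), Csnk1d 24.9 ± 1.72 FPKM and Cry2 21.9 ± 5.00 FPKM, at percentiles 87.5, 87.2 and 85.1 of the protein-coding genes in the table. Csnk1e followed with 15.6 ± 1.35 FPKM, Arntl with 15.3 ± 5.21 FPKM, Per3 with 14.6 ± 6.43 FPKM and Per1 with 12.6 ± 3.79 FPKM. Per2 with 5.57 ± 2.42 FPKM and Cry1 with 4.35 ± 1.45 FPKM were lower, and Npas2 with 0.727 ± 0.534 FPKM was lowest. By transcript level Clock was therefore the more abundant of the 2 partner genes of Arntl and Npas2 the scarcer, in every library of these bulk glands. Protein was not measured.

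Of the 9 neighbouring pairs in this order, 3 differed beyond their spread over libraries by the ratio within a library (exact two-sided sign-flip test, smallest possible p = 0.00781, adjusted over 9 pairs). The order that set the pairs came from the same 8 libraries as the tests. Per1 was higher than Per2 in 8 of 8 libraries, by 1.25 ± 0.70 on the log2 scale (exact p = 0.00781, adjusted p = 0.0352). Cry1 was higher than Npas2 in 8 of 8 libraries, by 2.83 ± 0.77 (exact p = 0.00781, adjusted p = 0.0352), and Cry2 was higher than Csnk1e in 7 of 8, by 0.46 ± 0.31 (exact p = 0.0156, adjusted p = 0.0469). Clock and Csnk1d, Csnk1d and Cry2, Csnk1e and Arntl, Arntl and Per3, Per3 and Per1, and Per2 and Cry1 could not be parted (adjusted p from 0.193 to 0.789). With 7 libraries the smallest possible p is 0.0156, so that 3 pairs must reach it together for any to pass, which they did without WT-11 and not without any other library.

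**Figure D1:**
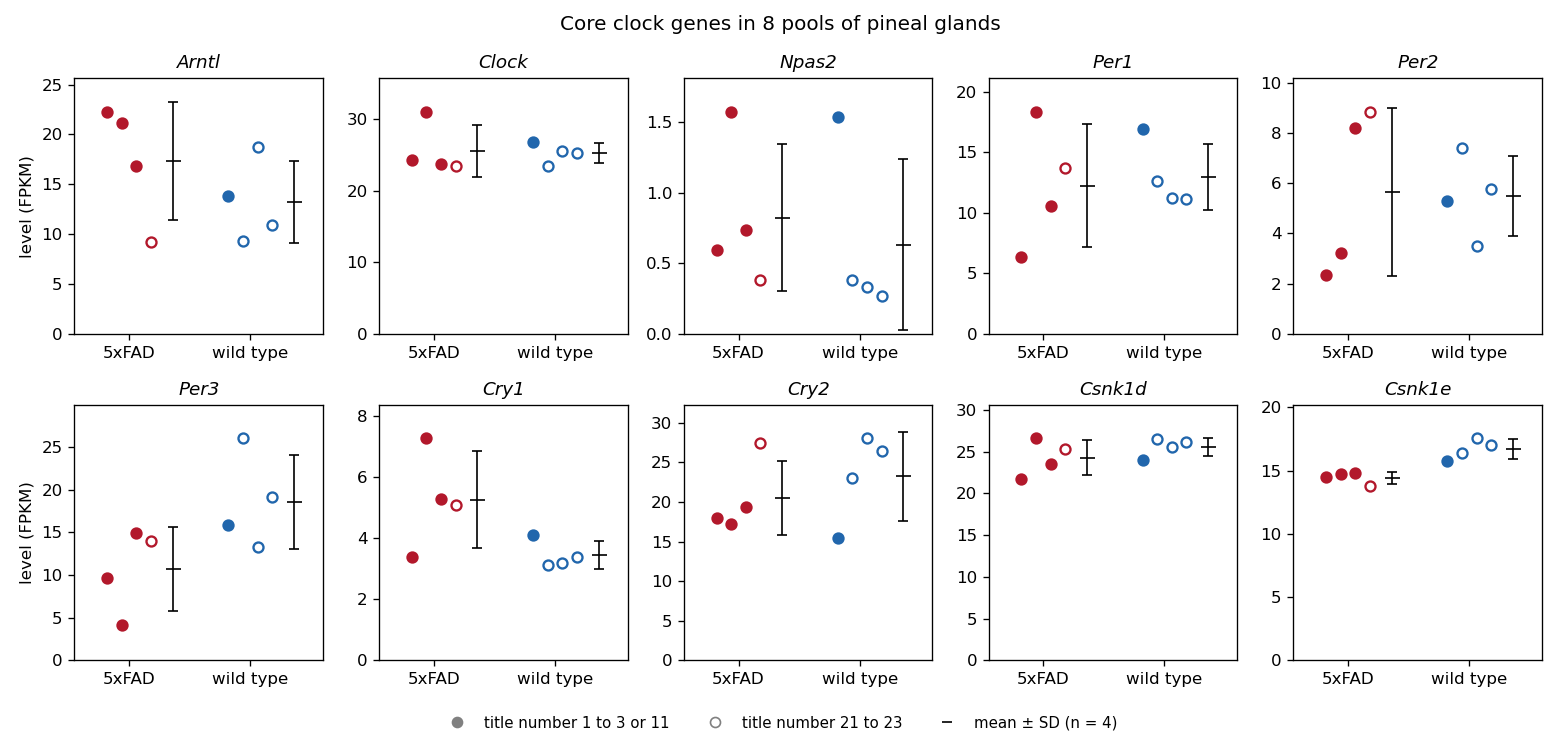
Level in FPKM of each of the 10 core clock genes in 4 pools of 5xFAD glands (red, left) and 4 pools of wild type glands (blue, right), with the mean and SD of each group; filled points are libraries with title numbers 1 to 3 or 11 and open points those with 21 to 23. Csnk1e is the gene whose groups do not overlap, with 13.8 to 14.8 FPKM in 5xFAD and 15.7 to 17.6 FPKM in wild type, while in Npas2 and Cry2 the filled and open points part.

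The activators were compared between genotypes next, with the gene positions of GENCODE M21 on GRCm38. Arntl (ENSMUSG00000055116.8, chr7:113207465-113314126, plus strand) had 22.3, 21.2, 16.8 and 9.26 FPKM in the 5xFAD pools, against 13.8, 9.33, 18.7 and 10.9 FPKM in the wild type pools. The groups overlapped, since 5xFAD-21 held the lowest value of all 8 and WT-22 stood within the range of 5xFAD. The log2 fold change of 5xFAD over wild type, here and below on log2(FPKM + 0.1), was 0.37 (standard error 0.31, adjusted p = 0.765 from limma over all 13094 genes). It was 0.64 without 5xFAD-21 (adjusted p = 0.638) and 0.22 without WT-21, and 0.05 with the set of title numbers described above as a term.

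Clock (ENSMUSG00000029238.11, chr5:76209868-76304792, minus strand) was steadier and had 24.3, 31.0, 23.7 and 23.4 FPKM in the 5xFAD pools, against 26.8, 23.4, 25.6 and 25.2 FPKM in the wild type pools. Its values lay within a narrow band but for 5xFAD-2, which stood above all others. The log2 fold change was 0.01 (standard error 0.11, adjusted p = 0.983 from limma), and it was −0.08 without 5xFAD-2 and −0.02 after quantile normalization.

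Npas2 (ENSMUSG00000026077.15, chr1:39193731-39363236, plus strand), which replaces CLOCK in part in the forebrain, had 0.598, 1.58, 0.740 and 0.381 FPKM in the 5xFAD pools, against 1.54, 0.384, 0.333 and 0.270 FPKM in the wild type pools. The high values were 5xFAD-2 and WT-11, so each group held a library far above its lowest. Npas2 did not pass the filter on low values. In the fit without a filter its log2 fold change was 0.47 (unadjusted p = 0.417, adjusted p = 0.82 from limma).

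Among the repressors, the 3 Per genes differed in how they varied. Per1 (ENSMUSG00000020893.17, chr11:69095217-69109960, plus strand), which responds within hours to cAMP and glucocorticoids, had 6.36, 18.3, 10.5 and 13.7 FPKM in the 5xFAD pools, against 16.9, 12.6, 11.2 and 11.1 FPKM in the wild type pools. The 5xFAD group held both the lowest and the highest value, and the wild type group lay between them. The log2 fold change was −0.16 (standard error 0.30, adjusted p = 0.889 from limma) and turned to 0.11 without 5xFAD-1. It was −0.64 without 5xFAD-2 and 5xFAD-21 (adjusted p = 0.868).

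Per2 (ENSMUSG00000055866.9, chr1:91415982-91459324, minus strand) had 2.35, 3.24, 8.19 and 8.84 FPKM in the 5xFAD pools, against 5.29, 7.39, 3.50 and 5.77 FPKM in the wild type pools. The 5xFAD libraries fell on both sides of wild type, a pair below its lowest library and a pair above its highest. The log2 fold change was −0.12 (standard error 0.44, adjusted p = 0.946 from limma), and its sign turned without WT-21 (0.03), 5xFAD-1 (0.22) or 5xFAD-2 (0.07).

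Per3 (ENSMUSG00000028957.12, chr4:151003652-151044665, minus strand), the Per gene that is not needed for the rhythm itself in mice, had 9.61, 4.13, 14.9 and 13.9 FPKM in the 5xFAD pools, against 15.8, 26.0, 13.3 and 19.2 FPKM in the wild type pools. The groups overlapped through WT-22, and 5xFAD-2 stood far below the others. The fitted change was −0.91 on the log2 scale (standard error 0.40, unadjusted p = 0.0487, adjusted p = 0.624 from limma) and −0.51 without 5xFAD-2. Per3 is overlapped by Camta1 on the same strand, and Camta1 also had its lowest level in 5xFAD-2, at 14.3 FPKM against 20.1 to 30.6 FPKM elsewhere. The part of Camta1 reads in the Per3 values was not tested.

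Cry1 (ENSMUSG00000020038.10, chr10:85131700-85185064, minus strand) had 3.39, 7.26, 5.29 and 5.07 FPKM in the 5xFAD pools, against 4.10, 3.12, 3.19 and 3.38 FPKM in the wild type pools. Of the 5xFAD libraries 3 lay above all wild type libraries, and 5xFAD-1 lay within their range. The fitted log2 change was 0.55 (standard error 0.23, unadjusted p = 0.0376, adjusted p = 0.607 from limma), and it was 0.38 without 5xFAD-2 and 0.30 without 5xFAD-2 and 5xFAD-21.

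Cry2 (ENSMUSG00000068742.11, chr2:92403646-92434043, minus strand) had 18.0, 17.2, 19.4 and 27.4 FPKM in the 5xFAD pools, against 15.4, 22.95, 28.0 and 26.5 FPKM in the wild type pools. Low values came from libraries of both genotypes, and so did high ones. On the log2 scale the change was −0.17 (standard error 0.22, adjusted p = 0.837 from limma), with −0.35 without WT-11 and −0.0639 without WT-22. It had the other sign within each set of title numbers, at 0.09 within the numbers 21 to 23 and 0.24 within the numbers 1 to 3 and 11.

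The kinase genes varied least. Csnk1e (ENSMUSG00000022433.19, chr15:79417856-79455566, minus strand) had 14.5, 14.7, 14.8 and 13.8 FPKM in the 5xFAD pools, against 15.7, 16.4, 17.6 and 17.04 FPKM in the wild type pools. Every 5xFAD library lay below every wild type library. The group means were 14.4 ± 0.473 and 16.7 ± 0.790 FPKM (SD, n = 4 each) in 5xFAD and wild type, a log2 difference of −0.21 (standard error 0.09, unadjusted p = 0.0393, adjusted p = 0.607 from limma). The change was −0.23 to −0.18 with any single library left out, −0.20 with the set of title numbers as a term, −0.30 within the numbers 21 to 23 and −0.10 within the numbers 1 to 3 and 11.

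Csnk1d (ENSMUSG00000025162.17, chr11:120961749-120991330, minus strand) had 21.7, 26.6, 23.5 and 25.3 FPKM in the 5xFAD pools, against 24.0, 26.6, 25.5 and 26.2 FPKM in the wild type pools. Its groups overlapped, at a log2 difference of −0.08 (limma, standard error 0.10, adjusted p = 0.824). The transcripts of Csnk1d and Csnk1e shared no stretch of 50 bases with each other or with any other gene in GENCODE M21, and neither did those of the other members apart from 4 of 6268 stretches of Cry2. Csnk1e and Csnk1d are each overlapped by an annotated antisense gene (Gm16059 and Gm28192), as are Cry2 (D930015M05Rik), Arntl (Gm45355) and Npas2 (Gm20428). Whether strand was used in the authors' counting is not stated. On the same strand Npas2 is overlapped by Gm3617, and Clock by Ube2n-ps1 and Gm43658.

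By limma, 0 of 9 members differed between genotypes at an adjusted p under 0.05, where 0.0382% of all genes tested did. Before adjustment 3 of 9 members passed at 0.05, where 7.95% of all genes did, and these were Cry1 (higher in 5xFAD), Per3 and Csnk1e (lower). None of the 9 passed at this level without WT-21, WT-23 or 5xFAD-2, each left out alone. By direction, the single higher member stood beside 4.6% of all genes and the 2 lower members beside 3.35%. Csnk1e was the 1 of 9 members whose groups did not overlap, where 4.34% of all genes had no overlap (2.11% above and 2.23% below). The median log2 fold change of the 9 members was −0.12, against −0.0074 over all genes tested.

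**Figure D2:**
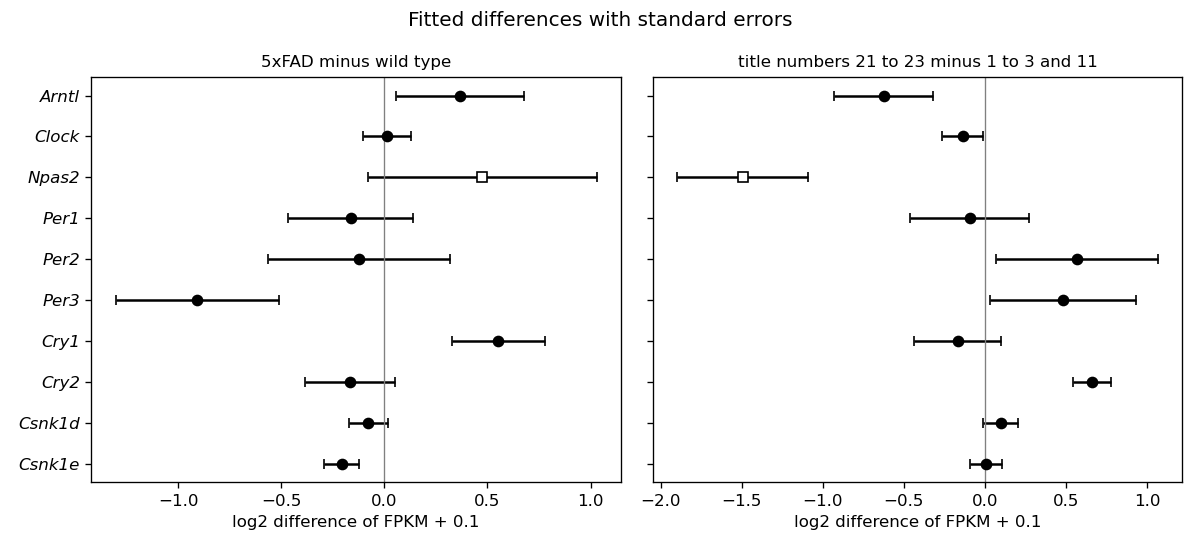
Fitted log2 differences of FPKM + 0.1 with standard errors for the 10 members, on the left 5xFAD minus wild type and on the right title numbers 21 to 23 minus 1 to 3 and 11 with genotype in the same fit; open squares mark Npas2, which was fitted without the filter on low values. On the left Per3 (−0.91) and Cry1 (0.55) lie farthest from 0 among the filtered genes, and on the right Npas2 (−1.49) and Cry2 (0.66).

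The members also differed in how much they varied from pool to pool. The SD of log2 values over the 8 libraries was 0.85 for Npas2, 0.78 for Per3, 0.68 for Per2, 0.51 for Arntl, 0.47 for Per1, 0.43 for Cry1 and 0.33 for Cry2, where the median of all genes tested was 0.26. It was 0.14 for Clock, 0.12 for Csnk1e and 0.10 for Csnk1d, which put Csnk1d at percentile 3.94 of all genes tested and Per3 at percentile 92.0. The highest level of Per3 was 6.30 times its lowest, that of Npas2 5.83 times and that of Csnk1d 1.23 times.

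By title number the libraries of Cry2 and Npas2 parted, where 5.54% of all genes tested had no overlap. Cry2 had 27.4, 22.95, 28.0 and 26.5 FPKM in the set 21 to 23, against 18.0, 17.2, 19.4 and 15.4 FPKM in the other set. The sets did not overlap, and libraries of both genotypes stood in each. In the fit that held genotype and number together, the log2 difference of the numbers 21 to 23 over 1 to 3 and 11 was 0.66 (standard error 0.12, unadjusted p = 5.13e-04, adjusted p = 0.319 from limma), and it was 0.59 to 0.74 with any single library left out.

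Npas2 ran the other way, with 0.381, 0.384, 0.333 and 0.270 FPKM in the set 21 to 23, against 0.598, 1.58, 0.740 and 1.54 FPKM in the other set. These sets did not overlap either. The log2 difference without the filter was −1.49 (standard error 0.41, unadjusted p = 0.0068, adjusted p = 0.351 from limma). For Arntl, Npas2's partner, the difference was −0.62 (standard error 0.30, unadjusted p = 0.0746, adjusted p = 0.404), with −0.15 without 5xFAD-21, and its sets overlapped through WT-22.

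Per2 lay at 0.57, Per3 at 0.48, Cry1 at −0.17, Clock at −0.14, Csnk1d at 0.10, Per1 at −0.09 and Csnk1e at 0.01 in the same comparison, with adjusted p values from 0.625 to 0.974. Per2 was 0.0051 without 5xFAD-21 and 1.13 without WT-11, and Per3 was 0.23 without 5xFAD-2 and 0.72 without WT-11. At an adjusted p under 0.05 0 of 9 members and 0% of all genes differed by number. At an unadjusted p under 0.05, 1 of 9 members did, where 13.5% of all genes passed. Cry2 was the 1 of 9 whose sets did not overlap, where 5.54% of all genes had no overlap (3.6% above and 1.94% below). This reading of the numbers was chosen after the values were seen.

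The output genes of the clock, which respond to the same loop, were then set beside the members. Of the 11 genes of the output and stabilising list, all 11 were tested, and 5 lay with all 4 libraries of the numbers 21 to 23 above the other 4, where 3.6% of all genes did. These were Dbp, Tef, Nr1d1, Nr1d2 and Bhlhe41. At an unadjusted p under 0.05, 6 of the 11 were higher in the numbers 21 to 23 and 0 lower, beside 6.19% and 7.31% of all genes, and 0 passed at an adjusted p under 0.05. The median log2 difference of the list was 0.49, against 0.04 over all genes tested.

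Dbp, the D-box activator, had 91.2, 88.2, 66.8 and 78.9 FPKM in the set 21 to 23, against 36.3, 9.64, 28.4 and 37.0 FPKM in the other set. The log2 difference was 1.57 (unadjusted p = 0.011, adjusted p = 0.326 from limma), the widest of the list. Nr1d1, which encodes REV-ERB alpha, stood at 1.31, Bhlhe41 (DEC2) at 0.83, Tef at 0.79 and Nr1d2 at 0.62. Nfil3, the opponent of DBP at D-boxes, stood at −0.48, and its highest library was 5xFAD-2 with 31.6 FPKM.

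5xFAD-2 had the extreme value in many of these genes. It held the highest Npas2, Clock, Per1, Cry1, Csnk1d, Nfil3 and Bhlhe40 of the 8 libraries and the lowest Per3, Dbp, Nr1d1, Nr1d2, Tef, Hlf and Bhlhe41. For Csnk1d the next library was close (26.56 FPKM in WT-21 against 26.62 FPKM), as it was for Npas2 (1.54 FPKM in WT-11 against 1.58 FPKM). The share of all genes with an extreme value in 5xFAD-2 was not computed. Dbp lay 2.20 below its mean over the libraries on the log2 scale there, Nr1d1 1.69 below and Per3 1.64 below, while Nfil3 lay 1.41 above and Npas2 1.25 above. The immediate early, brown fat, night-induced and glucocorticoid response lists were also highest in this library, at 382, 996, 421 and 427 FPKM in sum. The glucocorticoid response list includes the member Per1 itself. The part of these lists in the clock gene values was not tested.

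**Figure D3:**
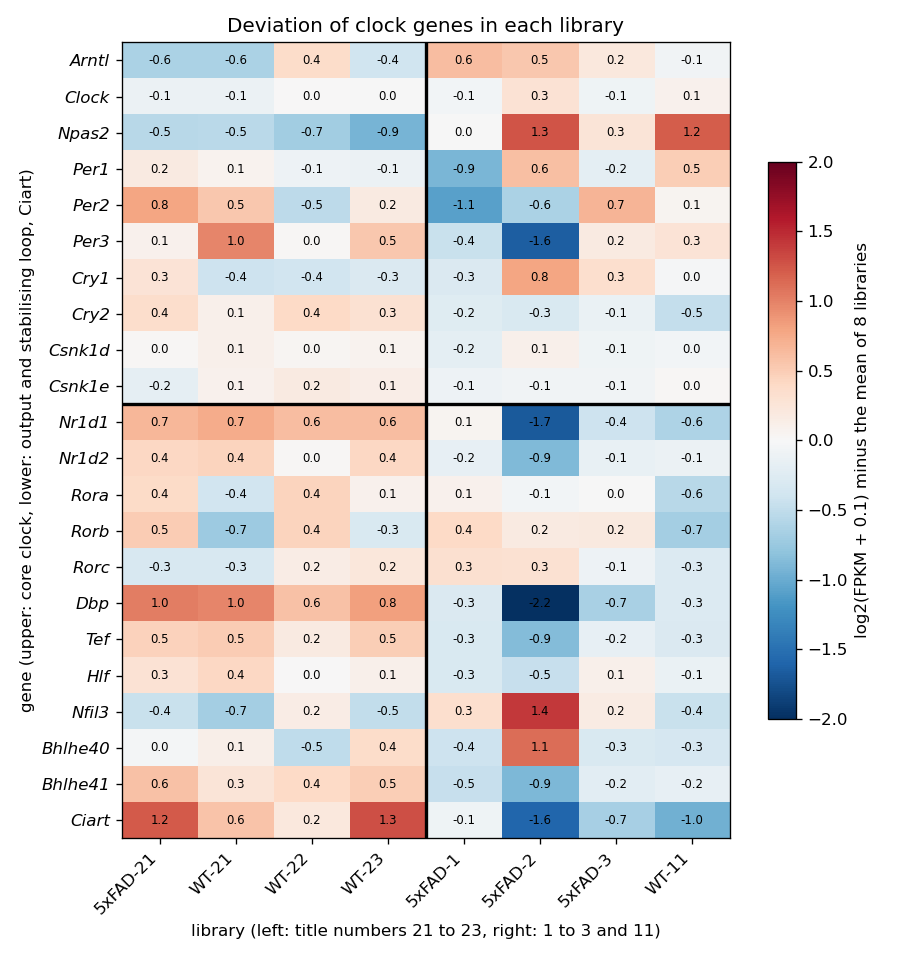
Deviation of log2(FPKM + 0.1) from the mean of 8 libraries for the 10 core clock genes (above the horizontal line) and for the output and stabilising loop with Ciart (below it), in libraries with title numbers 21 to 23 (left of the vertical line) and 1 to 3 and 11 (right), 5xFAD before wild type in each set. Ciart is not of the output list but of the list of genes that modify the core proteins. Dbp, Nr1d1 and Cry2 are above their means in all 4 libraries on the left, Npas2 is below its mean there, and 5xFAD-2 shows the deepest values of Dbp (−2.20), Nr1d1 (−1.69) and Per3 (−1.64).

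By genotype, 0 of the 11 output genes passed at an adjusted p under 0.05 and 1 was higher at an unadjusted p under 0.05, where 4.6% of all genes were, and the median was −0.19. That gene was Rorb, a ROR gene of retina and pineal, with a log2 fold change of 0.63 (unadjusted p = 0.03, adjusted p = 0.6 from limma), and it passed without WT-22, at 0.89 (adjusted p = 0.0465), where the calls over all genes were 75 higher and 19 lower, against 4 higher and 1 lower with all libraries. Nfil3 stood at 0.73, Dbp at −1.06 and Bhlhe41 at −0.49, and none of these passed. For all 3 the groups overlapped.

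Genes that modify the core proteins were examined as a further list of 31, of which 29 were tested. Of these 3 were higher and 1 was lower in 5xFAD at an unadjusted p under 0.05, beside 4.6% and 3.35% of all genes, 0 passed at an adjusted p under 0.05, and the median was −0.02. Fbxl21, a ubiquitin ligase subunit that binds the CRY proteins, had 3.44, 3.65, 3.57 and 3.35 FPKM in the 5xFAD pools, against 2.19, 1.72, 3.31 and 1.89 FPKM in the wild type pools. Its groups did not overlap, by a narrow margin to WT-22, and the log2 fold change was 0.64 (adjusted p = 0.58 from limma). Sirt1, a deacetylase that binds CLOCK, stood at 0.35 and Crebbp, a coactivator of the CLOCK pair, at −0.30, both with no overlap, while Cul1, the scaffold of ligases for CRY and PER, stood at 0.40 with overlap. Their adjusted p values were 0.545 to 0.58. With no overlap, 2 of the 29 lay above wild type and 1 below, beside 2.11% and 2.23% of all genes. By title number, 5 of the 29 were higher in the numbers 21 to 23 and 0 lower at an unadjusted p under 0.05. All genes stood at 6.19% and 7.31%. In that comparison 3 lay above with no overlap and 2 below, beside 3.6% and 1.94% of all genes. Ciart was among those above, at 1.83 (adjusted p = 0.319 from limma).

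In the casein kinase 1 family beyond the members, 4 of 4 genes were tested. Csnk1g1 had 6.32, 6.71, 8.46 and 8.20 FPKM in the 5xFAD pools, against 10.4, 9.60, 8.60 and 9.04 FPKM in the wild type pools, a log2 fold change of −0.35 (adjusted p = 0.598 from limma). It lay below wild type with no overlap, as 1 of the 4 genes and 2.23% of all genes did, while Csnk1a1, Csnk1g2 and Csnk1g3 overlapped. Csnk1a1, the most abundant of the family, which is also known to act on PER, stood at 0.13, Csnk1g2 at −0.04 and Csnk1g3 at 0.01.

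Ratios between related members were compared because a ratio within a library does not move with its scaling. The Csnk1d/Csnk1e ratio was 1.501, 1.81, 1.59 and 1.84 in the 5xFAD pools, against 1.53, 1.62, 1.45 and 1.54 in the wild type pools. The groups overlapped through 5xFAD-1 and 5xFAD-3, with a log2 difference of 0.13 (exact two-sided permutation over 70 splits, p = 0.2, adjusted p = 0.4 over 6 ratios).

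The Cry1/Cry2 ratio was 0.188, 0.422, 0.272 and 0.185 in the 5xFAD pools, against 0.266, 0.136, 0.114 and 0.128 in the wild type pools. WT-11 stood among the 5xFAD libraries, and the log2 difference was 0.73 (exact permutation p = 0.114, adjusted p = 0.4). By title number this ratio did not overlap, and neither did Npas2/Clock. The latter was 0.0107 to 0.0164 in the numbers 21 to 23 and 0.0247 to 0.0574 in the numbers 1 to 3 and 11. Both ratios hold a member whose sets did not overlap (Cry2 and Npas2), and no share over ratios of other genes was computed.

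The Per3/Per2 ratio was 4.09, 1.28, 1.83 and 1.58 in the 5xFAD pools, against 2.99, 3.52, 3.80 and 3.32 in the wild type pools. Of the 5xFAD libraries 3 lay below all wild type libraries and 5xFAD-1 lay above them, with a log2 difference of −0.79 (exact permutation p = 0.143, adjusted p = 0.4). The wild type pools lay close together in this ratio, with an SD of 0.15 on the log2 scale, against 0.74 in 5xFAD. The log2 difference was −0.75 for Per3/Per1 (exact permutation p = 0.371, adjusted p = 0.48), 0.57 for Npas2/Clock (p = 0.4, adjusted p = 0.48) and 0.04 for Per2/Per1 (p = 1.0, adjusted p = 1.0). Without 5xFAD-2 these were −0.12 for Per3/Per1 and 0.29 for Npas2/Clock, and Npas2/Clock was 1.10 without WT-11 and 0.17 with a pseudocount of 1.

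**Figure D4:**
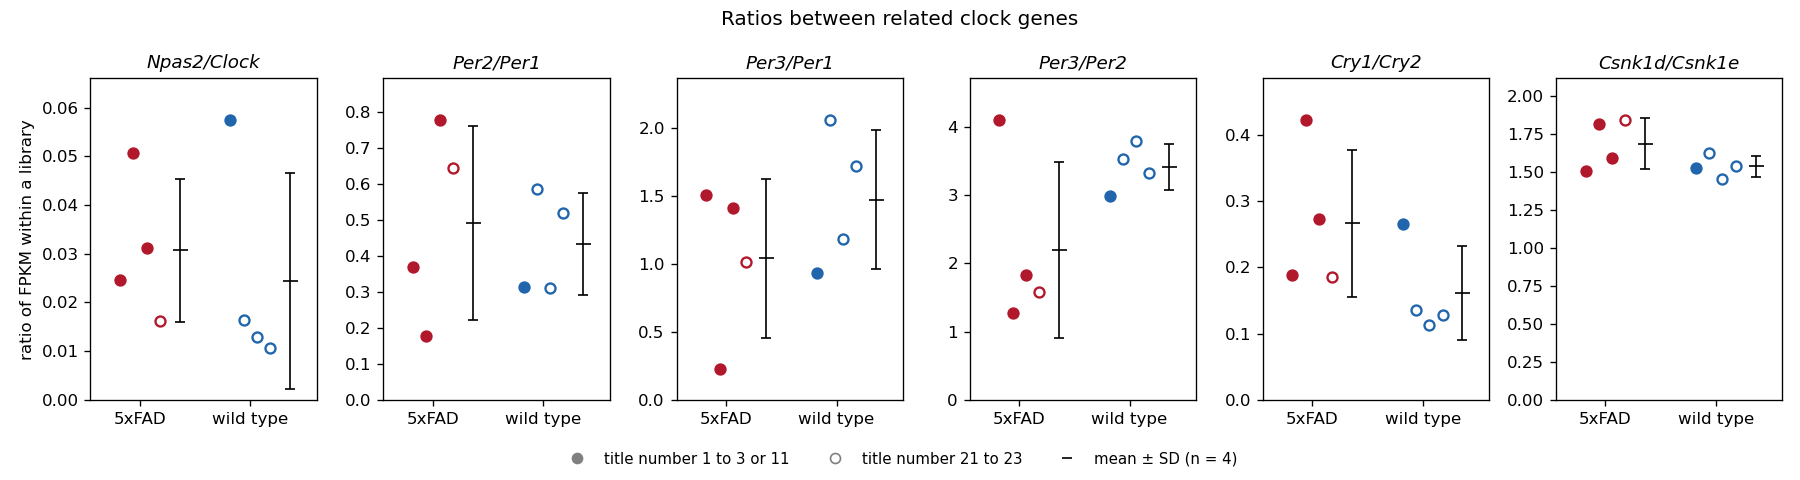
Ratio of FPKM within a library for 6 pairs of related clock genes, in 4 pools of 5xFAD glands (red, left) and 4 of wild type glands (blue, right), with the mean and SD of each group; filled points are title numbers 1 to 3 or 11 and open points 21 to 23. In Per3/Per2 the wild type pools lie between 2.99 and 3.80 and the 5xFAD pools between 1.28 and 4.09, and in Cry1/Cry2 and Npas2/Clock all filled points lie above all open points.

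Over the 8 libraries, the activator Arntl ran against the repressors Per2 and Per3. For Arntl and Per2 Pearson's r was −0.81 (exact permutation p = 0.0208, adjusted p = 0.312 over 45 pairs of members) and Spearman's rho −0.86 (exact permutation p = 0.0107, adjusted p = 0.241). It was −0.69 without the 2 libraries farthest from the median of Arntl, −0.84 on deviations from the group means and −0.81 on deviations from the means of the title number sets. For Arntl and Per3 r was −0.73 (exact permutation p = 0.02, adjusted p = 0.312) and rho −0.74 (exact permutation p = 0.0458, adjusted p = 0.623), and −0.74, −0.68 and −0.57 in the same 3 settings. Groups and sets of 4 libraries are too small for an r of their own, and neither pair passed the adjustment.

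Per3 and Clock had an r of −0.77 (exact permutation p = 0.0503, adjusted p = 0.377) and a rho of −0.48 (exact permutation p = 0.243, adjusted p = 0.735). Without the 2 libraries farthest from the median of Clock r was −0.22, so the pooled r rests on them. On deviations from the group means it was −0.94 and on those from the set means −0.71. For pairs with Npas2 or Cry2 no r is given, because their libraries fall into separate clusters by title number. Per3 and Cry1 had an r of −0.70 (exact permutation p = 0.0464, adjusted p = 0.377) and a rho of −0.52 (exact permutation p = 0.197, adjusted p = 0.735). Without the 2 libraries farthest from the median of Per3 r was 0.16, so the pooled r rests on them too. Of all 45 pairs, 0 passed at an adjusted p under 0.05. On deviations from the group means 3 passed, and neither Arntl pair did. These were Npas2 with Cry2, Clock with Per3 (both negative) and Per1 with Cry1 (0.94, against 0.54 over the libraries as they are). Deviations within a group sum to 0, which the permutation over all 8 libraries ignores. Its p therefore tends to be too small, and the 3 are not taken as a result. For Per1 with Cry1 r was 0.11 without the 2 libraries farthest from the median of Per1.

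The genes most like each member over the 8 libraries, by Pearson's r on log2 values among all protein-coding genes tested, were Lcorl (0.966) and Rapgef5 (0.964) for Arntl, Ddx21 (0.951) and Orc2 (0.941) for Clock, and Clip2 (0.984) and Cttnbp2nl (0.979) for Npas2. For the repressors they were Klf2 (0.98) and Srf (0.971) for Per1, Stxbp6 (0.97) and Nyap1 (0.963) for Per2, Med15 (0.966) and RP23-86F8.3 (0.954) for Per3, Mdh1b (0.954) and Lactb2 (0.946) for Cry1, and Mycn (0.988) and Shroom3 (0.982) for Cry2. Csnk1d was most like Eno1 (0.955) and Mtus2 (0.952), and Csnk1e most like Mpped2 and Lrp12 (0.941 each). No member was among the nearest genes of another. The nearest fellow member of each ranked between place 634 (Clock for Npas2) and place 3164 (Csnk1d for Cry2). The libraries of Npas2 and Cry2 form separate clusters by title number, and r for these members is taken across the clusters. These values were picked as the highest among 13094 genes over only 8 shared libraries and are given as a description.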

How the data were processed

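FPKM values were computed by the authors before they were deposited. Per the labels and the study's methods, paired reads from stranded total RNA libraries were trimmed with Trimmomatic, aligned to mm10 (GRCm38.p6) with STAR and summarised per gene with Cuffnorm on GENCODE M17, with versions and library scaling not given in the sources used here. The depth behind the FPKM is not in the table. From low values, 1 fragment was worth 0.756 to 0.794 times its WT-21 value in the 5xFAD libraries 1 to 3 and 1.00 to 1.24 times in the others. Protein-coding FPKM summed to 320286 to 391275 per library.

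limma 3.58.1 in R 4.3.3 (lmFit, eBayes with trend) was fitted on log2(FPKM + 0.1) over protein-coding genes with a mean of at least 1 FPKM, 4 libraries against 4, with Benjamini-Hochberg adjustment over all of them. The fit was also run on simulated data with independent noise for each gene. Those data lack the outlying pools and title number sets of the real libraries, so no conclusion is drawn from them. Ratios, level order and correlations used exact permutation in Python 3.11.15. Coordinates are from GENCODE M21 and promoters from RefSeq, both GRCm38. The p values measure the spread between pools. Alternatives were other pseudocounts, filters and scalings, each library left out, a replicate block, the title number set, no trend and array weights. Members, lists and tests were chosen with earlier results of these data known. All members, the 4 genes of smallest p per list and the 2 most like each member are named. The other output genes, Ciart and Camta1 were added after their values were seen. A mean column was not used.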

Additional observations from a re-analysis of the deposited data

Results flagged for a closer look

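A library that stood far from the other 3 of its group was looked for in the 10 members and 6 ratios, 32 groups of 4 in all, of which chance alone flags about 1 in 20. It was found in 4. Clock had 31.0 FPKM in 5xFAD-2, against 23.4 to 24.3 FPKM in the other 5xFAD libraries. Npas2 had 1.54 FPKM in WT-11, against 0.270 to 0.384 FPKM in the other wild type libraries. In the same library the Npas2/Clock ratio was 0.0574, against 0.0107 to 0.0164, and the Cry1/Cry2 ratio was 0.266, against 0.114 to 0.136. WT-11 is the wild type library whose title number is not among 21 to 23, and its Npas2 lay within the range of the 5xFAD libraries of the numbers 1 to 3.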

How the results depend on the processing

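At an adjusted p under 0.05 0 members passed in any alternative, and so for the 3 further lists apart from Rorb without WT-22. The count of members higher at an unadjusted p under 0.05 was 0 in place of 1 with a minimum mean of 5 FPKM, which removes Cry1, with the replicate block, with the title number set as a term and without 5xFAD-2 and 5xFAD-21, and 0 to 1 when each library was dropped in turn, where the 1 was Arntl without 5xFAD-21 (0.64) and Cry1 otherwise. The count lower was 1 in place of 2 without a filter and after quantile normalization (Csnk1e) and without 5xFAD-2 and 5xFAD-21 (Per1, at −0.64, with neither Per3 nor Csnk1e), 0 with equal protein-coding totals, the replicate block, the title number term or no trend, and 0 to 1 when any single library was dropped. Dropping libraries left 0 to 1 genes of the output list past the threshold.

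The replicate block used the replicate numbers 1 to 4 of the labels, which are not the title numbers. Deviations of same-numbered libraries correlated at −0.04, 0.21, −0.34 and 0.24, and those of libraries with different numbers at −0.42 to 0.38. Deviations from a mean of 4 libraries balance around 0, so these values cannot show whether libraries with the same number were paired. Signs turned for Clock after quantile normalization (−0.0198), with the title number term (−0.0565), without 5xFAD-2 and 5xFAD-21 (−0.0711) and within the low and high numbers (−0.0347 and −0.0782), for Per2 with that term (0.16) and within the high numbers (0.72), for Cry2 with that term (0.16) and within the low and high numbers (0.24 and 0.0905), and within the high numbers for Arntl (−0.42) and Per1 (0.23). With single libraries left out Clock ran from −0.0831 to 0.052, Per1 from −0.39 to 0.11, Per2 from −0.41 to 0.22 and the Per2/Per1 ratio from −0.25 to 0.46. By title number Per1 was 0.012 with genotype not in the fit and −0.54 to 0.35 with libraries left out, and Csnk1e was −0.0248 with median-ratio scaling, −0.0148 after quantile normalization, −0.012 with equal totals and −0.0911 to 0.11 with libraries left out.

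Of the neighbouring levels 0 passed within either genotype, where 4 libraries cannot reach a p under 0.125, and 0 to 3 with libraries left out, where the smallest p is 0.0156. On deviations from the group mean 3 pairs of members passed in place of 0, by a permutation p that tends to be too small there. With libraries left out 0 to 1 passed. The causes were not tested. Counts behind the FPKM are unknown, so no interval for counting error can be given, and Npas2, below 1 FPKM in 6 of 8 libraries, is the member with the least signal.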
